A study of Mus musculus with 24 samples.

Results

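Neuropeptides of the hypothalamus, the region at the base of the brain that controls hormone release, body fluid, feeding and arousal, were followed through 24 mouse brain libraries by the mRNA of 10 genes, Avp, Oxt, Crh, Trh, Pmch, Hcrt, Agrp, Npvf, Ghrh and Cartpt. The genes were chosen by symbol, each symbol was found in 1 row of the deposited expression table, and all 10 of 54532 genes in the table passed the filter that left 27286 genes for testing. The libraries came from a brain hemisphere of male C57Bl6 wild-type mice aged 8 to 12 weeks, with 6 mice in each of 4 groups. Mice carried a subcutaneous minipump for 2 weeks that delivered saline vehicle or angiotensin II (Ang II), a peptide that raises blood pressure, at 0.7 mg/kg/day. In both arms of the cell treatment 1000000 human amnion epithelial cells (hAECs, cells of the placental membrane) were injected intravenously, and the other mice were given saline. The groups are called vehicle, Ang II, vehicle + hAECs and Ang II + hAECs, with mice numbered as in the labels, and a library holds the RNA of all cells of the hemisphere, so that fewer cells of a type and less RNA per cell cannot be told apart.

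Each member encodes a precursor protein that is cut in the secretory pathway into active peptides. Avp and Oxt encode vasopressin, the water-retaining and pressor hormone, and oxytocin, and are made by large neurons that send their axons to the posterior pituitary. Crh, Trh and Ghrh encode the releasing hormones for corticotropin, thyrotropin and growth hormone. Pmch (melanin-concentrating hormone) and Hcrt (hypocretin, also called orexin) mark separate neurons of the lateral hypothalamus that act on feeding and arousal. Agrp is the appetite-promoting antagonist of melanocortin receptors in the arcuate nucleus, Npvf encodes peptides of the RFamide type that act on gonadotropin release, and Cartpt encodes a peptide of feeding and stress that is also made outside the hypothalamus. Crh, Trh, Avp and Cartpt are known from other brain regions too, so their level in a hemisphere is not a measure of the hypothalamus alone.

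Avp and Oxt are neighbours and close relatives, and their hormones differ in few residues, so the coding bases of the hormones are shown, as annotated in GENCODE M21 on GRCm38. Each line holds the 9 codons of the hormone followed by the codons of its glycine, lysine and arginine processing site, and capitals mark the 5 of 36 bases that differ between the genes.
Avp hormone: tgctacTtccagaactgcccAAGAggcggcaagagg
Oxt hormone: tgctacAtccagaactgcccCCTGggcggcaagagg

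Further along, both coding sequences hold an identical run of 127 bases, printed here because a read that falls inside it cannot be assigned to either gene from its own letters. The run covers positions 131 to 257 of the 504 coding bases of Avp and 119 to 245 of the 375 coding bases of Oxt.
Avp and Oxt shared run: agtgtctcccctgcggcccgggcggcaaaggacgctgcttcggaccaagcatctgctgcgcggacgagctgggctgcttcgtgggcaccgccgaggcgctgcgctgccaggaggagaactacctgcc
Over the whole alignment 322 of 375 aligned coding positions (85.9%) were identical, and 78 of 326 windows of 50 bases in Oxt also occurred in Avp. How the authors treated reads with several matches is not given in the sources used here, so the levels of Avp and Oxt and the ratio between them are uncertain to that extent.

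Of the 10 members, 8 had an entry in the RefSeq promoter table (GRCm38.p6), and Crh and Agrp had none. The 250 bases before the start are printed for Oxt and Avp, for Cartpt and Npvf, whose levels followed each other and the hypothalamic markers between mice, and for Hcrt, which followed neither. They lie at chr2:130575919-130576168 (plus strand, Oxt), chr2:130582589-130582838 (minus strand, Avp), chr13:99900684-99900933 (minus strand, Cartpt), chr6:50654446-50654695 (minus strand, Npvf) and chr11:100762932-100763181 (minus strand, Hcrt). The start is the RefSeq start, which can differ from that of the deposited gene. For Cartpt the stretch lies inside the deposited gene position given below. Capitals mark every match, on either strand, to a TATA box (TATAAA), to a cAMP response element (TGACGTCA) or to the core of a nuclear receptor site (AGGTCA).
Oxt upstream region: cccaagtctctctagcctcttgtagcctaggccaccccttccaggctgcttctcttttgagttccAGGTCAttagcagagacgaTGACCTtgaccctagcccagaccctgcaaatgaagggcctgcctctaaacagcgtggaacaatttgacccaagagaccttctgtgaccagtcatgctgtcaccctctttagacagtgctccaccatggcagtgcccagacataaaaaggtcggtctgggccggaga
Avp upstream region: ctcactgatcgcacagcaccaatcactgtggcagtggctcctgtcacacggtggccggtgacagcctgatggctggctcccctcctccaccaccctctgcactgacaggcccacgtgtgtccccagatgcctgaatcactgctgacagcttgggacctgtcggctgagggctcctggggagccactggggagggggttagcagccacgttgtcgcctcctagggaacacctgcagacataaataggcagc
Cartpt upstream region: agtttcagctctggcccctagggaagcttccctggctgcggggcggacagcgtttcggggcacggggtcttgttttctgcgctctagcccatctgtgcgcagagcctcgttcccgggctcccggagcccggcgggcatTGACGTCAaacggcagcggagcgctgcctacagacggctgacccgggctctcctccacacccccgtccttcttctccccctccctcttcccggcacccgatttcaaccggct
Npvf upstream region: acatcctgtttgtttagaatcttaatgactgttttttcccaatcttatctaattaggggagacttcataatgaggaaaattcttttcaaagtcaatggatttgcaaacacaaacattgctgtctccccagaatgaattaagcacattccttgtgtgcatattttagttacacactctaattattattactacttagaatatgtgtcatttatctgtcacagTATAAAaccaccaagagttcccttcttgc
Hcrt upstream region: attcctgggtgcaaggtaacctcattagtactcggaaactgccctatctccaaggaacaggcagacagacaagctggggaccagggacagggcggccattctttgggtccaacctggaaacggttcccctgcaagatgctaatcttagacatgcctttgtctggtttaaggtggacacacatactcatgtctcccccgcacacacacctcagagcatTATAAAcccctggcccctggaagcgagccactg
TATAAA occurred in 12.4% of 32851 upstream regions of this length and in 4 of the 9 entries of members, those of Npvf, Hcrt, Pmch and 1 of 2 of Ghrh. TGACGTCA occurred in 1.55% of all regions and, among members, in Cartpt, where it lay 112 to 105 bases before the start. AGGTCA occurred in 14% of all regions and in 4 of the 9 entries, of Oxt, Trh and both of Ghrh, and Oxt held 2 copies on opposite strands. A match is a description of these letters, not a binding site.

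The positions in the deposited table, on GRCm38, were chr2:130580620-130582554 for Avp (ENSMUSG00000037727, minus strand) and chr2:130576173-130577054 for Oxt (ENSMUSG00000027301, plus strand), which leaves 3565 bases between them. Crh (ENSMUSG00000049796) lay at chr3:19693401-19695396, Trh (ENSMUSG00000005892) at chr6:92242061-92244650, Npvf (ENSMUSG00000029831) at chr6:50650672-50654439 and Hcrt (ENSMUSG00000045471) at chr11:100761069-100762931, all on the minus strand. Pmch (ENSMUSG00000035383) lay at chr10:88091072-88092375 on the plus strand, and 435 of its 749 exonic bases (58.1%) were also exonic in Parpbp on the minus strand. Ghrh (ENSMUSG00000027643) lay at chr2:157329497-157347506, Cartpt (ENSMUSG00000021647) at chr13:99898489-99901091 and Agrp (ENSMUSG00000005705) at chr8:105566698-105637393, all on the minus strand. Of the 1013 exonic bases of Agrp, 114 (11.3%) were shared with Ctcf or Gm5914, and the other 8 members shared none. Whether the counting used strand is not given in the sources used here, so reads of Pmch and Parpbp cannot be told apart, nor those of Agrp and its neighbours.

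Between 16536449 and 25308700 fragments were behind each library. The total FPKM (fragments counted on a gene per length of gene and size of library) of 18 libraries ran from 277116 to 298301, and 6 libraries stood apart at 338334 to 348597. These were 2 vehicle mice, 1 Ang II mouse, 1 vehicle + hAECs mouse and 2 Ang II + hAECs mice, and their share of mitochondrial fragments was 6.17% to 6.85% against 4.79% to 5.75% in the other 18. Ang II mouse 4 stood apart for its pituitary transcripts, with 1238 FPKM summed over 9 pituitary genes where the next mouse had 29.6, and with 343 FPKM of Pomc, which the pituitary makes. Of 14 regional marker genes of the hypothalamus, 5 had a mean under 0.1 FPKM over the 24 mice, among them Sim1 at 0.0346, a transcription factor of the paraventricular nucleus, while Baiap3 had 16.6 and Otp, another transcription factor of neuroendocrine neurons, had 1.20.

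FPKM is a level per length, so it allows a rough comparison between genes. For Hcrt the deposited length was 749 bases, against 586 and 509 in its annotated transcripts. The lengths of Agrp, Ghrh and Cartpt were also longer than any of their transcripts. Such a length lowers the FPKM, so the order of genes of near level is uncertain. Avp had the highest mean level of the 10 over all 24 mice, 32.2 FPKM ± 6.22 (SD, n = 24), with a range of 22.0 to 44.0. Oxt followed at 21.6 ± 8.52 FPKM and ran from 4.73 to 39.5, by far the widest range among the abundant members. Avp and Oxt together made up a median of 53.7% of the summed FPKM of the 10 genes, between 45.1% and 60.2% in single mice. The median level of Avp was 1.45 times that of Oxt in the same mouse, and the ratio ran from 0.954 in an Ang II + hAECs mouse to 5.24 in vehicle mouse 2, which had the lowest Oxt.

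A middle group of 5 genes had means of 5.71 to 12.4 FPKM. Cartpt had a mean of 12.4 ± 4.06 FPKM and Hcrt of 10.5 ± 2.60, and Cartpt was the higher of the pair in only 14 of 24 mice. Pmch, with 7.99 ± 1.14 FPKM, and Trh, with 7.81 ± 1.63, were likewise not separated, since Pmch was higher in 14 of 24. Crh, with 5.71 ± 0.874 FPKM, was the lowest of the middle group, below Trh in 22 of 24 mice and above Agrp in all 24.

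The last 3 members were near or below 1 FPKM. Agrp had 1.01 ± 0.399 FPKM, Ghrh 0.563 ± 0.323 and Npvf 0.228 ± 0.163. Agrp exceeded Ghrh in 17 of 24 mice and Ghrh exceeded Npvf in 22. Behind these levels stood 6 to 33 reads per library for Agrp, 1 to 18 for Ghrh and 0 to 10 for Npvf, whereas Avp had 223 to 616, so the 3 rare transcripts carry a large counting error. Npvf was detected in 21 of 24 mice, and 3 reads in a library is the limit that a count of 0 allows.

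**Figure D1:**
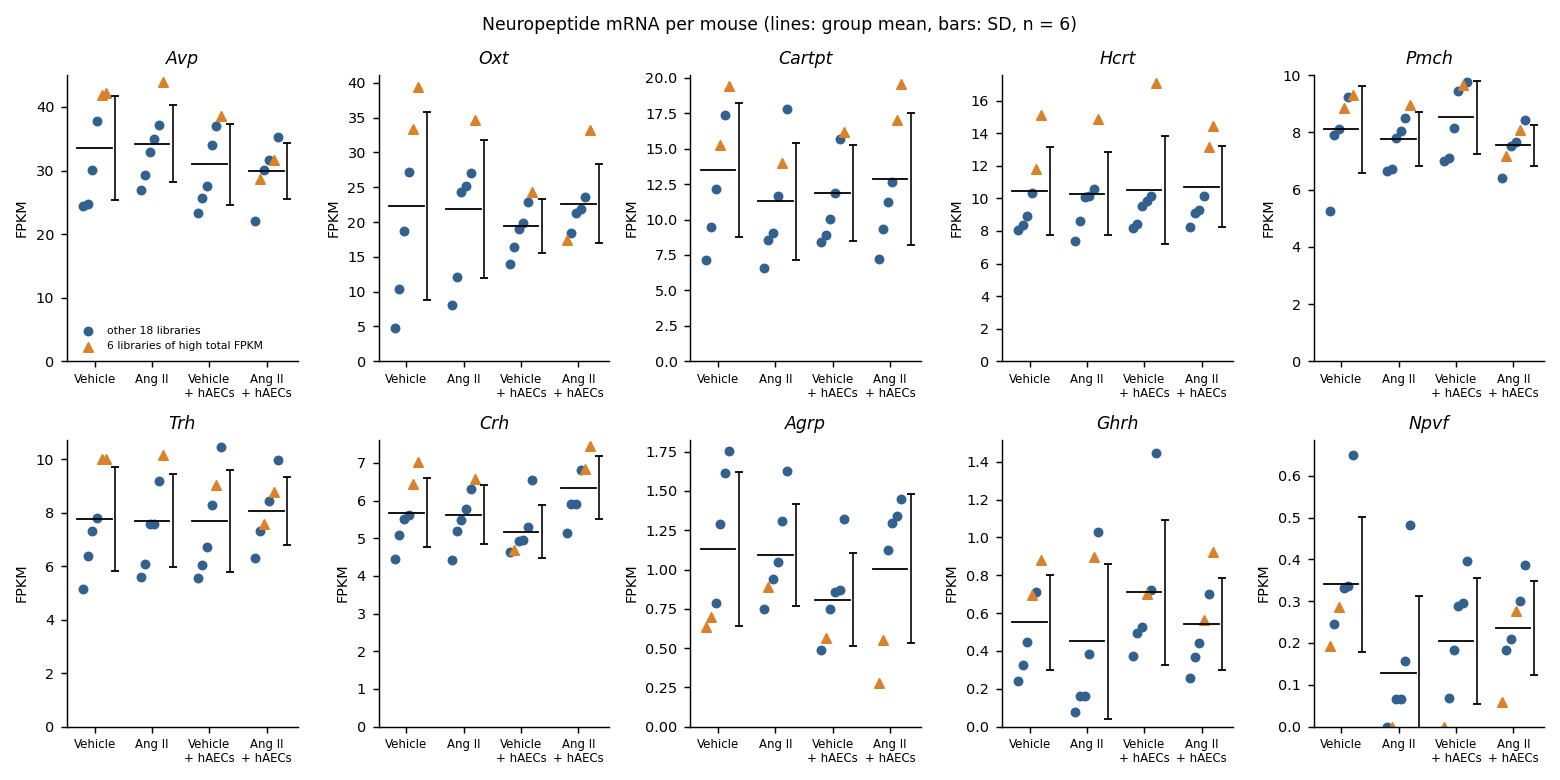
FPKM of the 10 neuropeptide genes in each mouse, 1 panel per gene with its own axis from 0, by treatment group (hAECs, human amnion epithelial cells). Circles are the 18 libraries of usual total FPKM, triangles the 6 of high total, lines the group means and bars the SD over 6 mice. The 4 groups overlap for every gene, and every triangle of Hcrt (11.8 to 17.1) lies above every circle (7.39 to 10.6). How many of all genes separate the triangles from the circles was not counted.

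Ang II raises thirst and vasopressin release through the brain, which makes the comparison of Ang II with vehicle mice a question about Avp first. Avp was 24.5, 33.9 and 42.3 FPKM (lowest, median, highest) in vehicle mice and 27.0, 33.9 and 44.0 in Ang II mice. The groups overlapped over nearly their whole range. The log2 fold change was 0.05 (95% interval -0.28 to 0.38), with an adjusted p = 0.994 in the limma fit. Oxt was 4.73, 22.9 and 39.5 FPKM in vehicle and 8.14, 24.7 and 34.7 in Ang II mice, with a log2 fold change of 0.13 (-0.70 to 0.95, adjusted p = 0.994 by limma), and the width of this interval reflects the spread between mice of the same group.

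No gene in the table reached an adjusted p-value under 0.05 between Ang II and vehicle mice, and 2.21% of the 27286 tested genes were past an unadjusted p of 0.05. Among the members 1 of 10 was, Npvf. Npvf was 0.193, 0.309 and 0.651 FPKM in vehicle mice and 0, 0.0660 and 0.483 in Ang II mice, which stand for 4 to 10 reads and 0 to 8 reads. Of the 6 Ang II mice, 5 lay below the lowest vehicle mouse, and the exception, mouse 4, was the library with the pituitary transcripts. The log2 fold change on the log2(FPKM + 0.1) scale was -1.18 ± 0.41 (SE), with p = 0.00929 unadjusted and 0.994 adjusted by limma, and the exact permutation test of 6 against 6 mice gave p = 0.0260. Without Ang II mouse 4 the log2 fold change was -1.51 (unadjusted p = 0.000621 by limma), and with the hypothalamic marker level of each mouse in the fit it was -1.26 (unadjusted p = 0.000769). The size depended on the scale for so few reads, at -0.25 with a pseudocount of 1, -2.44 with 0.01 and -1.77 with voom on the recovered reads (unadjusted p = 0.0159, 0.0111 and 0.00884 by limma). With any single mouse of either group left out, the log2 fold change ran from -1.51, the value without Ang II mouse 4, to -0.998. The unadjusted p by limma stayed under 0.05 each time.

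The other 7 members differed by less than the spread between mice. Crh had medians of 5.56 FPKM in vehicle and 5.63 in Ang II mice and a log2 fold change of -0.01 (95% interval -0.25 to 0.23), and Pmch, with medians of 8.48 and 7.94, had -0.04 (-0.30 to 0.21), so for these the data bound a change most closely. Trh (0.00, -0.37 to 0.36) and Hcrt (-0.02, -0.41 to 0.38) lay near 0 as well. For Agrp (0.01, -0.65 to 0.68), Cartpt (-0.25, -0.82 to 0.32) and Ghrh (-0.50, -1.35 to 0.36) the intervals were wide. 

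The next comparison sets Ang II mice with hAECs against those without, and a difference here can include an effect of the cells alone. Between Ang II + hAECs and Ang II mice, 2.54% of all genes were past an unadjusted p of 0.05 and 0 of the 10 members were, by limma. Avp was 22.0, 30.9 and 35.2 FPKM with the cells and 27.0, 33.9 and 44.0 without, a log2 fold change of -0.19 (95% interval -0.52 to 0.14), and 5 of 6 mice with cells lay below the median of the mice without. Npvf was 0.0582, 0.243 and 0.385 FPKM with the cells, or 1 to 6 reads, and the log2 fold change was 0.77 ± 0.41 (SE, unadjusted p = 0.0759 and adjusted p = 1 by limma). This value moved across the threshold with single libraries. It was 1.10 (unadjusted p = 0.00805 by limma) without Ang II mouse 4 and 0.97 (unadjusted p = 0.0308) without Ang II + hAECs mouse 5. Ghrh, at 0.49 ± 0.41 (SE), and Oxt, at 0.17 ± 0.40, had errors of like size, and Pmch, at -0.04 (-0.29 to 0.21), and Crh, at 0.17 (-0.07 to 0.41), had the smallest.

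In mice without Ang II, hAECs against none gave no member with an unadjusted p-value under 0.05, where 2.41% of all genes had 1. Agrp, the antagonist of the melanocortin system, was 0.491, 0.802 and 1.32 FPKM with cells and 0.632, 1.04 and 1.75 without. The 2 groups overlapped, with a log2 fold change of -0.40 (95% interval -1.07 to 0.27, adjusted p = 0.995 by limma). Among the 18 libraries of usual total FPKM it was -0.61 with an unadjusted p = 0.0264. Npvf had -0.65 (-1.51 to 0.20), or -0.80 with an unadjusted p = 0.0379 when the library set was a term in the limma fit. Avp (-0.10, -0.43 to 0.23), Oxt (0.09, -0.74 to 0.92) and Crh (-0.13, -0.37 to 0.11) did not differ beyond the spread between mice.

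Among the mice given hAECs, Ang II against vehicle gave 1 of 10 members with an unadjusted p-value under 0.05, against 2.66% of all genes. It was Crh, whose product drives the pituitary and adrenal stress axis. Crh was 4.63, 4.93 and 6.55 FPKM in vehicle + hAECs mice and 5.14, 6.37 and 7.46 in Ang II + hAECs mice, and the ranges overlapped, with 2 vehicle + hAECs mice, at 5.31 and 6.55, above the lowest Ang II + hAECs mouse. The log2 fold change was 0.29 ± 0.12 (SE), with p = 0.0204 unadjusted and 1 adjusted by limma, and p = 0.0303 in the exact permutation test. Both Ang II + hAECs libraries of high total FPKM were the 2 highest of their group for Crh. Among the 18 other libraries the log2 fold change was 0.17 with an unadjusted p = 0.137 by limma. With all libraries kept and the library set as a term in the limma fit, it was 0.25 with an unadjusted p = 0.0189. Without Ang II + hAECs mouse 6 the log2 fold change was 0.24 (unadjusted p = 0.0562 by limma).

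A test of the interaction asks whether the Ang II difference itself changed with the cells. In the limma fit 2.54% of all genes and 1 of 10 members were past an unadjusted p of 0.05 for it. The member was again Npvf, with a log2 difference of 1.42 ± 0.59 (SE, unadjusted p = 0.0232 and adjusted p = 0.931 by limma), or 0.29 with a pseudocount of 1, 3.14 with 0.01 and 2.21 with voom. Crh had 0.30 (95% interval -0.04 to 0.64) and Avp -0.09 (-0.56 to 0.38). Over the 4 pairs of groups, 2 of 40 exact permutation tests gave p under 0.05, the lowest p adjusted over the 40 was 0.606, and 2.16e-03 is the smallest p that 6 against 6 mice allow. The ranges of the groups overlapped for every member in all 40, where 0.0623%, 0.099%, 0.0623% and 0.0843% of all genes had groups that did not overlap for Ang II, for hAECs on Ang II, for hAECs alone and for Ang II with hAECs. Pairs of groups shared mice, so these differences are not independent of each other.

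**Figure D2:**
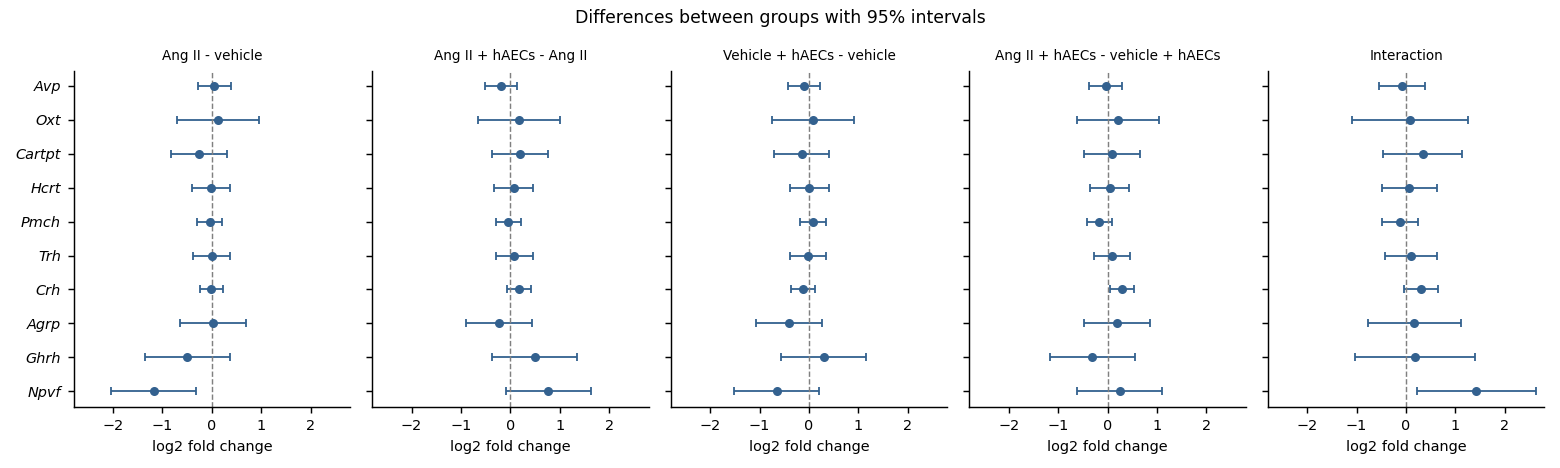
Log2 fold changes of log2(FPKM + 0.1) for the 10 genes in the 4 pairs of groups and in the interaction, with 95% intervals from the limma fit over 24 mice (hAECs, human amnion epithelial cells). The dashed line marks no difference. Intervals that leave out 0 are those of Npvf in the Ang II comparison and in the interaction, and that of Crh between the groups with hAECs, and none of these passed the adjustment over all genes.

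Receptors and processing enzymes were looked at beside the peptides. Of 15 genes for receptors of these peptides and the Crh-binding protein, 14 were tested, and 0 had an unadjusted p-value under 0.05 in the limma fit in any of the 5 comparisons, with 0 adjusted as well. Crhr1, the main receptor for Crh, was the most abundant at 18.3 FPKM, and Mchr1, the receptor for melanin-concentrating hormone, had 8.68. Avpr1b and Avpr2, the vasopressin receptors of the pituitary and the kidney, had 0.0114 and 0.0824 FPKM, and Ghrhr did not pass the filter. Of 11 genes for peptide processing and dense-core granules, 0 had an unadjusted p-value under 0.05, with medians of the log2 fold change between -0.01 and 0.02 in the 5 comparisons. The enzyme Cpe, carboxypeptidase E, was present at 637 FPKM, many times the level of any peptide gene here.

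Of 11 other peptides of the hypothalamus, 10 were tested and Kiss1 was listed at 0 in all 24 mice. Prlh, which encodes prolactin-releasing peptide, was 0, 0.194 and 0.722 FPKM in vehicle and 0.386, 0.844 and 1.74 in Ang II mice, the equivalent of 0 to 4 and 2 to 8 reads. The log2 fold change was 1.68 ± 0.63 (SE, unadjusted p = 0.0141 and adjusted p = 0.994 by limma). Nms, which encodes neuromedin S, a peptide of the circadian pacemaker, had 0 to 0.240 FPKM in vehicle + hAECs and 0.0944 to 0.342 in Ang II + hAECs mice, a log2 fold change of 1.07 ± 0.39 (unadjusted p = 0.0107, adjusted p = 1). None of the 14 regional markers of the hypothalamus had an unadjusted p-value under 0.05 in any of the 5 comparisons, and their median log2 fold change lay between 0.00 and 0.06.

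The spread between mice of the same group depended on the gene. The SD of log2 levels within groups was 0.736 for Oxt, which is larger than in 99.5% of genes of like level, and 0.502 for Cartpt, larger than in 97.1%. For genes with a mean of at least 1 FPKM the median SD was 0.239. Crh, with 0.203, and Pmch, with 0.219, lay below that median.

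The hypothalamic marker level of each mouse, the mean of log2(FPKM + 0.1) over the 14 regional markers, gives a scale for this spread, and it ran from -1.77 in vehicle mouse 2 to -0.64 in Ang II mouse 4. Correlations were taken within the library sets, with group means removed in the 18 usual libraries, because the 6 of high total FPKM formed a separate cluster. The permutations made no allowance for the group means removed, so the p-values for the 18 libraries are somewhat too small. Oxt followed the marker level with Pearson r = 0.901 and Spearman rho = 0.944 over 18 mice, each with an adjusted p of 0.0001 by permutation test, the smallest that 100000 resamples can give over 10 members. It kept r = 0.911 without the 2 mice farthest from the median marker level (Ang II mouse 4 and vehicle mouse 2). In the 6 high libraries, where group means were not removed, r was 0.870 (exact permutation p = 0.0542 unadjusted and 0.352 adjusted). Their rho was 0.657 (exact permutation p = 0.175, unadjusted), so Oxt did not pass there. Baiap3, 1 of the 14 markers, was also the gene most like Oxt.

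Cartpt followed next, with r = 0.855 and rho = 0.825 in the 18 mice (adjusted permutation p = 0.0001 and 0.0004) and r = 0.769 without the 2 farthest mice. In the 6 high libraries r was 0.131. Npvf had r = 0.749 and rho = 0.686 (adjusted permutation p = 0.00123 and 0.0072), Agrp 0.664 and 0.657 (0.0057 and 0.00837) and Trh 0.658 and 0.598 (0.0057 and 0.0201). Without the 2 farthest mice these were 0.640, 0.600 and 0.541. Ghrh had r = 0.621 but rho = 0.445 (adjusted permutation p = 0.00992 and 0.108), and r = 0.412 without Ang II mouse 4.

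The remaining 4 members did not pass in the 18 mice. Avp had r = 0.401 (adjusted permutation p = 0.140). Over all 24 mice, with the mean of each library set removed too, Avp had r = 0.440 (adjusted permutation p = 0.0461), which made 7 of 10 members. That p-value takes no account of the means removed, so whether Avp passes is uncertain. Pmch had r = 0.296 (0.291), Crh -0.091 (0.800) and Hcrt 0.006 (0.980). For Crh and Hcrt no relation to the marker level was detected over the same mice in which Oxt ranged from 4.73 to 27.2 FPKM, although Hcrt neurons lie in the hypothalamus.

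**Figure D3:**
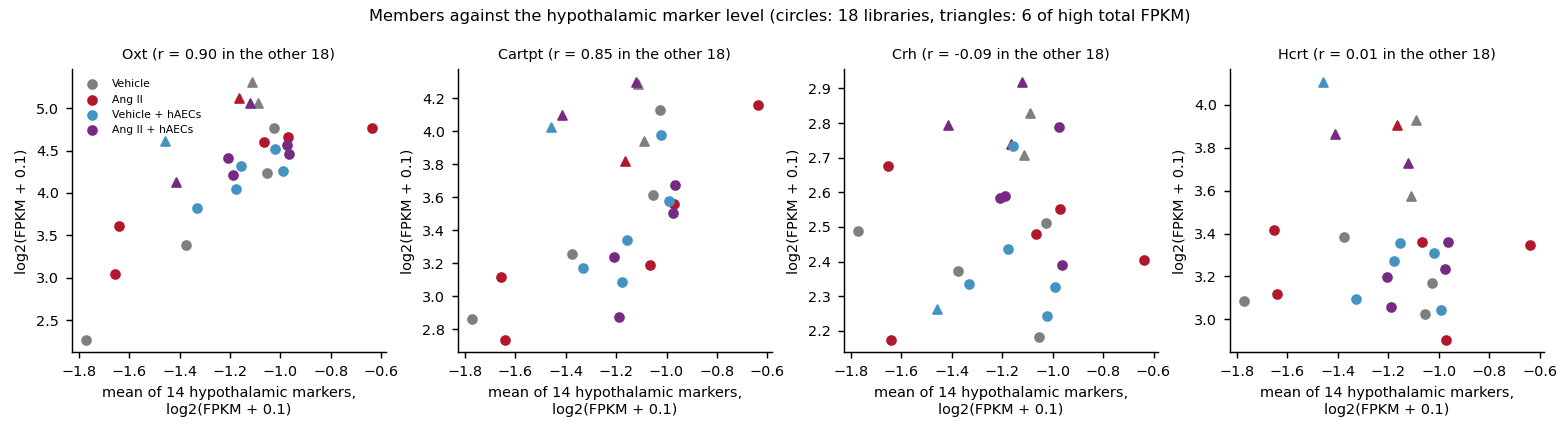
Levels of Oxt, Cartpt, Crh and Hcrt against the mean of 14 hypothalamic marker genes in each mouse, both as log2(FPKM + 0.1). Circles are 18 libraries, triangles the 6 of high total FPKM, colours the groups. Oxt and Cartpt rise with the marker level in the circles (r = 0.90 and 0.85), Crh and Hcrt do not (r = -0.09 and 0.01).

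Pairs of members were compared in the same way. Of 45 pairs, 10 passed an adjusted permutation p-value of 0.05 by Pearson's r in the 18 libraries, all 10 with a positive r, and the median r over the 45 was 0.372. These p-values too are somewhat too small, so the count of 10 is an upper one. The pairs nearest the threshold were Avp with Trh (0.0417), Oxt with Npvf (0.0393) and Trh with Cartpt (0.0257), and whether these pass is uncertain. Npvf and Ghrh were the closest pair with r = 0.854 (rho = 0.736, adjusted permutation p = 0.0009 and 0.0101), and r was 0.742 without Ang II mouse 4. Npvf and Cartpt had r = 0.797, Ghrh and Cartpt 0.779, Oxt and Cartpt 0.772, and Oxt and Agrp 0.743, with rho from 0.684 to 0.829 and adjusted permutation p from 0.00112 to 0.00459 for r. Without the 2 mice farthest on the scale of the gene named first these were 0.659, 0.618, 0.797 and 0.558.

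The neighbouring genes Avp and Oxt had r = 0.540 (rho = 0.523, adjusted permutation p = 0.0825 and 0.121), a weaker relation than that of Oxt with Cartpt on another chromosome, though the difference between these correlations was not tested. Avp was just past the threshold with Trh by r but not by rho (r = 0.595, rho = 0.507, adjusted permutation p = 0.0417 and 0.127). No pair with Crh, Pmch or Hcrt passed, and Pmch and Hcrt, the pair of lateral hypothalamic peptides, had r = 0.382 (adjusted permutation p = 0.239). In the 6 high libraries 25 of 45 pairs had a positive r and none passed, the lowest adjusted p from exact permutation being 0.125. So few mice allow too few orders for a single pair to pass the adjustment over 45, however strong its r. The lack of a pass there is therefore not evidence that a relation was absent.

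**Figure D4:**
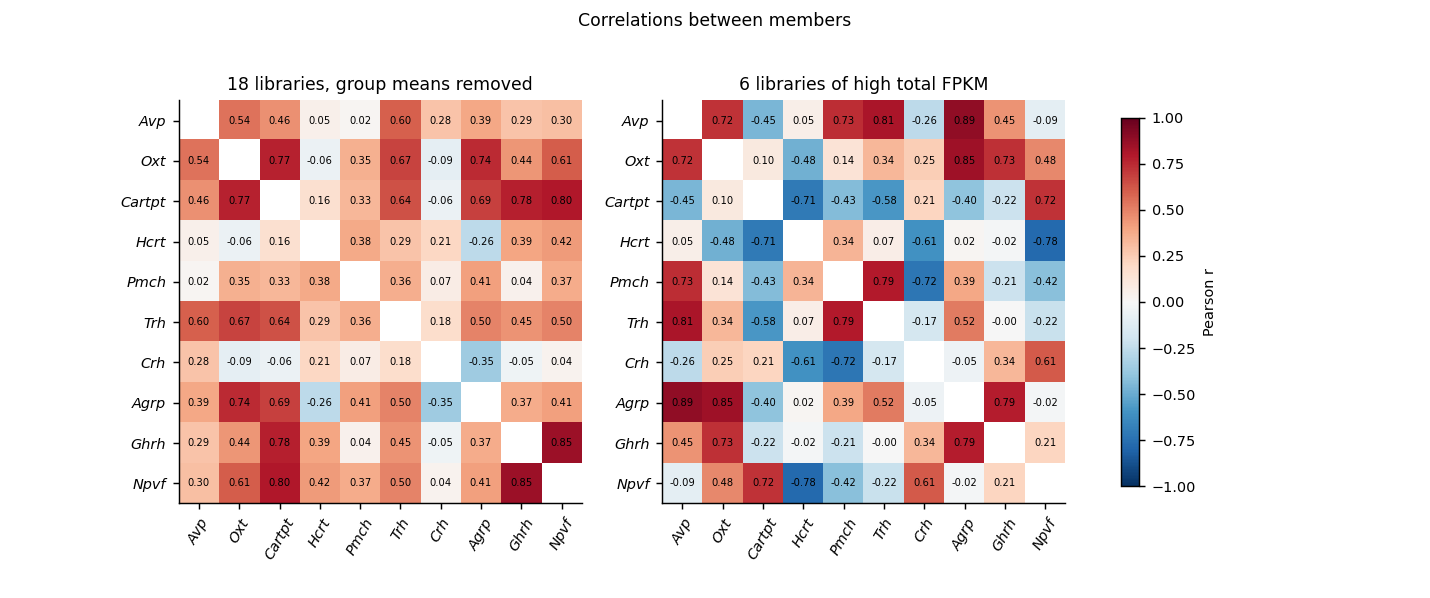
Pearson r between the log2(FPKM + 0.1) levels of each pair of the 10 genes, left over 18 libraries with group means removed and right over the 6 libraries of high total FPKM. Red is positive and blue negative. On the left, Oxt, Cartpt, Agrp, Ghrh, Npvf and Trh have r of at least 0.37 with each other.

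Genes outside the members with the most similar pattern over 24 mice were taken from 13270 genes with a mean of at least 1 FPKM, after removal of group means, as a description. For Oxt these were Baiap3 (r = 0.93), Gpx3 (0.88), a secreted glutathione peroxidase, and Hap1 (0.88), the huntingtin-associated protein, which is abundant in the hypothalamus. For Cartpt they were Ccdc153 (0.88), Rln3 (0.88), the relaxin peptide of the nucleus incertus in the brainstem, and Foxj1 (0.87), a factor of ciliated ependyma. With the library set removed as well they were Rln3 (0.89), Tph2 (0.86) and Slc6a4 (0.84), the latter pair being the synthetic enzyme and the transporter of serotonin neurons. Slc6a4 was then also among the 3 closest for Npvf (0.77) and Ghrh (0.71), and Gnas (0.83), Blcap and Ctxn2 for Trh.

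Before the set was removed, Trh was closest to Ogfod3, Hap1 and Tmie, Ghrh to Gpx3, Dcun1d5 and Mcub, and Npvf to Cct4, AW551984 and Arl10. Hcrt was closest to Dtnbp1 (0.94), Ltbp4 (0.93) and Nsg2 (0.93), Avp to Skiv2l (0.82), Evpl and Ddx49, and Agrp to Ndst4 (0.86), Zfp330 and Tasp1. For Hcrt the highest r fell to 0.76 (Disp1) once the set was removed. Pmch was closest to Gm23969 (0.75), Rpl17-ps10 and Acat2, and Crh to 4930466K18Rik (0.79), Mrm3 and Rit1, none of which is on any list used here.

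The library set itself moved with most members. With group as a term, 53.3% of all tested genes had an adjusted p-value under 0.05 between the 6 high libraries and the other 18, with a median log2 difference of -0.07 over all genes, and 9 of the 10 members did. Hcrt was 11.8, 14.7 and 17.1 FPKM in the 6 and 7.39, 9.19 and 10.6 in the 18, without overlap, a log2 difference of 0.66 ± 0.07 (SE, adjusted p = 5.41e-08 by limma). The share of all genes without overlap between the sets was not counted, so this cannot be called particular to Hcrt. Oxt (0.79 ± 0.29), Ghrh (0.76 ± 0.31), Cartpt (0.67 ± 0.18), Trh (0.36 ± 0.13), Avp (0.35 ± 0.11) and Crh (0.22 ± 0.08) were also higher in the 6 libraries, with adjusted p-values by limma of 0.00276 to 0.0438.

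Agrp and Npvf went the other way. Agrp was 0.280, 0.599 and 0.887 FPKM in the 6 libraries and 0.491, 1.21 and 1.75 in the 18, a log2 difference of -0.87 ± 0.20 (adjusted p = 0.000555 by limma), and Npvf had -0.86 ± 0.30 (adjusted p = 0.0183). Pmch did not pass, with 0.19 ± 0.09 (adjusted p = 0.0990), but it passed with 0.25 under median ratio scaling or with voom on the recovered reads. The directions of all 10 were the same under both of these scalings. As the 6 libraries were spread over the 4 groups, the set and the treatment could be separated in the fit, and the part of the set in single group differences of members beyond the values given was not tested.

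**Figure D5:**
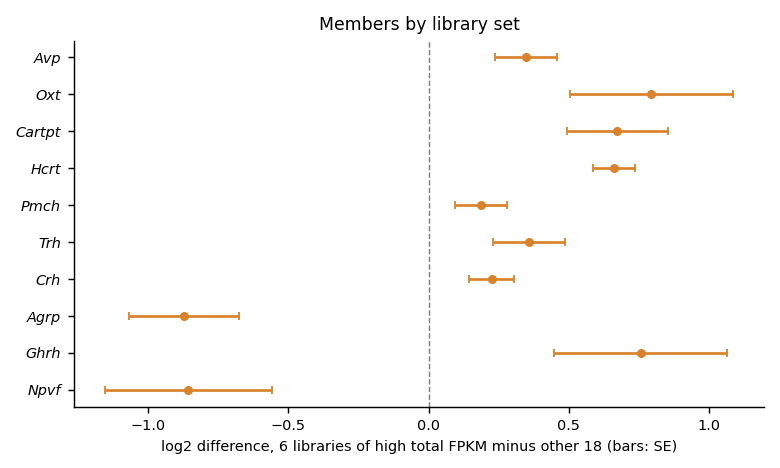
Log2 difference of each gene between the 6 libraries of high total FPKM and the other 18, with group as a term in the limma fit, points with SE bars. Hcrt has the smallest bar and lies at 0.66, 7 other genes lie above 0, and Agrp and Npvf lie at -0.87 and -0.86.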

How the data were processed

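Brain RNA of 24 mice was analysed, and groups and mouse numbers came from the sample labels. Deposited FPKM values were in 1 table that also held gene length, names and GRCm38 coordinates. The authors aligned reads to the mouse genome of Ensembl and used DESeq for their own tests (version 1.10.1 in the submitters' processing notes, which also name GRCm38 and mm10). The aligner, the counting program, the annotation release and the use of strand are not given in the sources used here.

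Multiplied by gene length, 100% of the values came out as whole reads in each library (tolerance 0.01), so reads were recovered and used only for an alternative with limma voom. The depth was 16536449 to 25308700 fragments, and limits from counts cover counting error only. The main test was limma 3.58.1 in R 4.3.3 on log2(FPKM + 0.1), which understates fold changes of low genes, with 4 groups in one fit, a trend in eBayes, genes above 0 in at least 6 of 24 mice, and Benjamini-Hochberg adjustment over all 27286 genes. Single members were tested with two-sided exact permutation tests, and correlations with 100000 permutations. Deviations from group or set means were permuted freely, without allowance for the means removed, so those correlation p-values are somewhat too small. Genes of like level had a mean FPKM within 2-fold. The fit was tested on simulated data. Other steps used numpy 2.4.6, pandas 2.3.3 and matplotlib 3.10.9 under Python 3.11.15.

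The members, the gene lists and the library sets were chosen with earlier results of these data known, and no list is independent evidence of a direction. All 10 members are named. Genes of other lists are named when they pass an unadjusted p-value of 0.05 in a comparison or define a list, and the 3 genes closest to each member are named. Markers of other brain regions and of the pituitary were listed in the same way. Values of an overlapping or near-identical gene are uncertain.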

Additional observations from a re-analysis of the deposited data

Results flagged for a closer look

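In 40 sets of 6 mice (10 genes in 4 groups), 6 had a highest or lowest mouse whose gap to the next, divided by the range, was above Dixon's 95% critical value, which chance gives in about 1 in 20 groups. Hcrt was 17.1 FPKM in vehicle + hAECs mouse 6, the only library of high total FPKM in that group, and the next mouse had 10.1. Crh was 6.55 FPKM in vehicle + hAECs mouse 5, with the next at 5.31. Ghrh was 1.45 FPKM in vehicle + hAECs mouse 3, with the next at 0.720. Npvf was 0.651 FPKM in vehicle mouse 3, with the next at 0.336, and 0.483 FPKM in Ang II mouse 4, the mouse with the most pituitary transcripts, with the next at 0.157. Pmch was low, at 5.25 FPKM, in vehicle mouse 2, with the next at 7.90, and that mouse also had the lowest Oxt and the lowest hypothalamic marker level of all 24.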

How the results depend on the processing

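No member passed an adjusted p-value of 0.05 in any of the 5 comparisons under any setting tried, and of 1300 values of member fold changes under the alternatives 114 changed sign, all from a log2 fold change of at most 0.25 in size that was not past an unadjusted p-value of 0.05 in either fit. Of 530 summary counts under the alternatives, 482 stayed within 1.5 times. Many of these were counts of genes or members with an adjusted p-value under 0.05 in the group comparisons. Those counts were 0 in the main fit and with few exceptions stayed 0, so the 482 say little about stability. The counts of genes with an unadjusted p-value under 0.05 moved most. In the order Ang II against vehicle, Ang II + hAECs against Ang II, vehicle + hAECs against vehicle, Ang II + hAECs against vehicle + hAECs and interaction, they were 93, 119, 105, 136 and 118 with only genes of a mean FPKM of at least 1 (fewer genes tested), 1053, 1259, 1140, 1164 and 1146 in the 18 usual libraries, and 1254, 1282, 1331, 1303 and 1282 with array weights. With the library set as a term they were 944, 1063 and 1093 for Ang II against vehicle and for Ang II + hAECs against Ang II and against vehicle + hAECs. The causes of the larger counts were not tested. Array weights gave 1 gene with an adjusted p-value under 0.05 in the interaction.

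Of the 10 members, 0 had an unadjusted p-value under 0.05 for Ang II against vehicle and for the interaction with a mean FPKM of at least 1, since that filter removed Npvf. For Ang II + hAECs against Ang II 1 did (Npvf) with a pseudocount of 0.01, the replicate block, the library set as a term, the hypothalamic marker level as a covariate, or array weights. For vehicle + hAECs against vehicle 2 did with the set as a term (Agrp and Npvf), 1 in the 18 libraries (Agrp) and 1 with the marker level (Npvf). With array weights Crh was lost between the groups with hAECs, leaving 0. In the 18 libraries Agrp took its place there (0.60, unadjusted p = 0.0290), and the interaction had 2 (Npvf and Agrp). Among pairs of members, 21 of 45 passed the adjusted threshold in all 24 mice, 9 with the set mean removed and 10 in the 18 libraries, a restriction chosen after seeing the data. As the p-values of correlations are somewhat too small, these counts are upper ones. With the marker level 6 of 10 members passed in all 24 mice, 7 with the set mean removed (Avp joined, which is uncertain) and 6 in the 18 libraries.

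With each mouse left out in turn, genes with an unadjusted p-value under 0.05 ranged from 590 to 1188 (vehicle + hAECs against vehicle), 627 to 1247 (Ang II + hAECs against vehicle + hAECs) and 617 to 1244 (interaction), the highest each time without vehicle + hAECs mouse 6. Members ranged from 0 to 1 for Ang II + hAECs against Ang II (1 without Ang II mouse 4 or Ang II + hAECs mouse 5), from 0 to 1 for Ang II + hAECs against vehicle + hAECs (0 without Ang II + hAECs mouse 6), and from 1 to 2 for the interaction, where Crh joined without vehicle mouse 1, Ang II mouse 5, vehicle + hAECs mouse 5 or Ang II + hAECs mouse 3. Genes with an adjusted p-value under 0.05 ranged from 0 to 1 in Ang II + hAECs against vehicle + hAECs, with 1 without vehicle + hAECs mouse 1.

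The labels number mice alike in each group but name no pairing, so the main fit used none. Deviations of same-numbered mice correlated between -0.09 and 0.53, and 14 of 24 pairs were over 0.1, so the numbers may carry shared structure. The highest values, 0.47 to 0.53, were between same-numbered mice that both had libraries of high total FPKM. All 6 libraries of high total FPKM were mice numbered 5 or 6. With the replicate block the counts of genes with an unadjusted p-value under 0.05 were 950, 1036, 1096 and 1416 for the Ang II, vehicle + hAECs, Ang II + hAECs against vehicle + hAECs and interaction comparisons. In the main fit they were 604, 658, 725 and 692. Depth limits Npvf, Ghrh and Agrp, at medians of 4, 6 and 18.5 reads.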

Other observations

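Pituitary transcripts differed widely between libraries. Their sum over 9 genes, led by Gh, growth hormone, was 0.888 to 29.6 FPKM in 23 mice and 1238 in Ang II mouse 4, where Gh alone had 1115 FPKM. Pou1f1, the pituitary transcription factor, had an unadjusted p of 0.0463 for Ang II against vehicle by limma (log2 fold change 0.41 ± 0.19, adjusted p = 0.994), and 8 of the 9 pituitary genes had a positive log2 fold change there, where 55.4% of all tested genes had. Both values include Ang II mouse 4, and the pituitary genes were not tested without that mouse. En1, a midbrain and hindbrain factor, had a log2 fold change of 0.57 ± 0.23 (unadjusted p = 0.0205) for Ang II + hAECs against Ang II, and Gpr6, a striatal receptor, had -0.18 ± 0.08 (unadjusted p = 0.0415) between the groups with hAECs, both with adjusted p = 1. The 6 markers each of thalamus, cerebral cortex, olfactory bulb and choroid plexus had no gene with an unadjusted p-value under 0.05 in any of the 5 comparisons. Summed over the genes of a list in each of the 24 mice, the hypothalamic markers ran from 12.7 to 28.7 FPKM and the members from 62.5 to 140.3. Markers of thalamus ran from 45.4 to 58.4, of cerebral cortex from 95.4 to 134.4 and of striatum from 131.2 to 238.9. Those of cerebellum and hindbrain ran from 40.1 to 85.2, of olfactory bulb from 7.83 to 14.6 and of choroid plexus from 358.6 to 1129. In proportion, the range of the choroid plexus markers was wider than that of the hypothalamic markers, and the ranges of thalamus and cerebral cortex were narrower. The sums cover both library sets, and the hypothalamic sum, with a mean of 21.9 FPKM, was mostly Baiap3 (16.6). Whether the regions differ in spread was not tested.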
